A study of Homo sapiens with 10 samples.

Results

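Integrins and laminins, the receptors and ligands through which epithelial cells hold on to a basement membrane, were followed in RPE p53-/- cells, a human retinal pigment epithelium line without p53, and in CCAR1 knockout cells of the same p53-/- background. The set was listed by gene name, with earlier results of these data known. It held 37 of the 62700 genes of the deposited table: 18 alpha integrins, 8 beta integrins and 11 laminin chains. CCAR1 is, by the title of the series, a splicing factor with a role in the Fanconi anemia/BRCA pathway, and polyadenylated RNA was sequenced to ask what its loss changes across the genome. The 10 samples were 5 of the genotype RPE p53-/-, parental control, and 5 of the genotype RPE p53-/-, CCAR1 knockout. All were grown in the same serum-containing medium with no treatment named. The labels do not say whether the knockout cells were a single clone or whether replicates were separate cultures, so each p-value reflects only how far these samples spread, and that spread may be technical.

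An integrin is a pair of 1 alpha and 1 beta chain that spans the plasma membrane. Outside the cell it binds matrix proteins such as fibronectin, collagen and laminin, and inside it is tied to actin or, for the hemidesmosome pair, to keratin filaments by adaptor proteins. A laminin is a cross-shaped trimer of 1 alpha, 1 beta and 1 gamma chain, secreted by cells and assembled into the sheet of a basement membrane. Retinal pigment epithelium rests on such a sheet, which is a part of Bruch's membrane. Which chains a cell makes decides which pairs and trimers it can form.

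In both genotypes the libraries fell into 2 depths, with 52.6 to 65.2 M counts (M, 1e6 counts) in replicates 1 to 3 and 320.6 to 385.4 M in replicates 4 and 5. They are called shallow and deep here, and what made them differ was not tested. Transcripts of skeletal muscle (10 markers), summed over the list, were at 277 to 593 CPM (counts per 1e6 counts of the scaled library) in the shallow libraries of both genotypes. In the deep libraries they were at 9.72 and 9.83 CPM (parental) and 23.5 and 23.6 CPM (knockout), and of this sum TNNT1 alone made up 9.44 and 9.49 CPM (parental) and 23.2 and 23.1 CPM (knockout). The other 9 muscle markers were each at or under 0.159 CPM in the deep libraries. Erythroid and liver lists were split the same way, with erythroid markers at 22.3 to 182 against 0.170 to 0.204 CPM and liver markers at 28.9 to 86.9 against 0.747 to 1.58 CPM. Of the 6 epithelial markers, KRT8 and KRT18 were at 118 to 249 CPM, while CDH1 and EPCAM were under 1 CPM in every library. KRT19 was at 3.77 to 10.7 CPM in the shallow and 0.0321 to 0.0846 CPM in the deep libraries. KRT7 was at 6.56 to 9.46 CPM in the shallow and 1.70 to 2.13 CPM in the deep ones. Of 9 markers of the retinal pigment epithelium, MITF (30.9 to 47.1 CPM), OTX2 (10.1 to 18.3 CPM) and BEST1 (1.196 to 2.57 CPM) were present and the other 6 stayed under 1 CPM, RPE65 among them. The targeted gene, CCAR1, was at 125, 133, 134, 173 and 173 CPM in parental replicates 1 to 5 and at 92.3, 95.6, 88.5, 126 and 126 CPM in knockout replicates 1 to 5. The knockout was lower within each depth, and the groups overlapped when depths were pooled. Its fall of 0.48 on the log2 scale had an edgeR adjusted p of 0.0201, which passed 0.05 in these data but not without parental replicate 5 (adjusted p = 0.0504), with library size only (0.0525) or with chromosome medians subtracted (0.121). It passed with the replicate block (2.16e-06) and with chromosome medians subtracted and depth as a term (1.60e-06).

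Knockout cells had more transcript of the laminin chains LAMA4, LAMA5, LAMB3 and LAMC1 and of the fibronectin receptor chain ITGA5, and less of LAMA3 and of the collagen and laminin receptor chains ITGA1 and ITGA6. The most abundant chains, ITGA3 and ITGB1, did not pass the test with genotype only. ITGA3, but not ITGB1, passed with the replicate number as a block. Of the 37 genes 30 passed the filter on low counts, 8 of those rose, 5 fell and 17 did not pass (edgeR's quasi-likelihood test, Benjamini-Hochberg adjusted p under 0.05 over all 18979 genes tested). That is 43.3% called, against 36.6% of all genes tested, of which 19.7% were higher and 16.9% lower. A change of at least 2-fold was called for 8 members, 7 higher and 1 lower, where 10.6% of all genes had one, 1417 higher and 587 lower. The members' median log2 fold change was 0.16, against 0.02 over all genes tested, and single values ran from -1.11 (LAMA3) to 2.78 (ITGAX). By class, 3 alpha integrins rose and 3 fell of 13 tested, 1 beta integrin rose and 1 fell of 8, and 4 laminin chains rose and 1 fell of 9. In bulk RNA, fewer cells that express a gene and less RNA per cell cannot be told apart.

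Knockout and parental ranges were apart for 12 of the 30 members, 7 above and 5 below, against 30.6% of all genes tested. Compared within the shallow and within the deep libraries, 20 of the 30 were apart in the same direction in both, 12 above and 8 below, and none in opposite directions. This is 66.7%, against 53.9% of all genes tested. With the replicate number as a block, which takes up the difference between shallow and deep libraries, 14 members were called higher and 8 lower, where 61.2% of all genes were called, 31.1% higher and 30.1% lower. In the shallow libraries alone 10 of the 29 members tested were higher and 8 lower (52.7% of all genes called). In the deep libraries alone 15 of the 35 members tested were higher and 9 lower (57% of all genes called). With the median of each gene's chromosome subtracted 9 were higher and 3 lower (33.5% of all genes called). The block kept the 13 calls and added ITGA3, ITGA11, ITGB5, ITGB6, LAMB1 and LAMB2 as higher and ITGA2, ITGA7 and ITGB8 as lower.

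**Figure D1:**
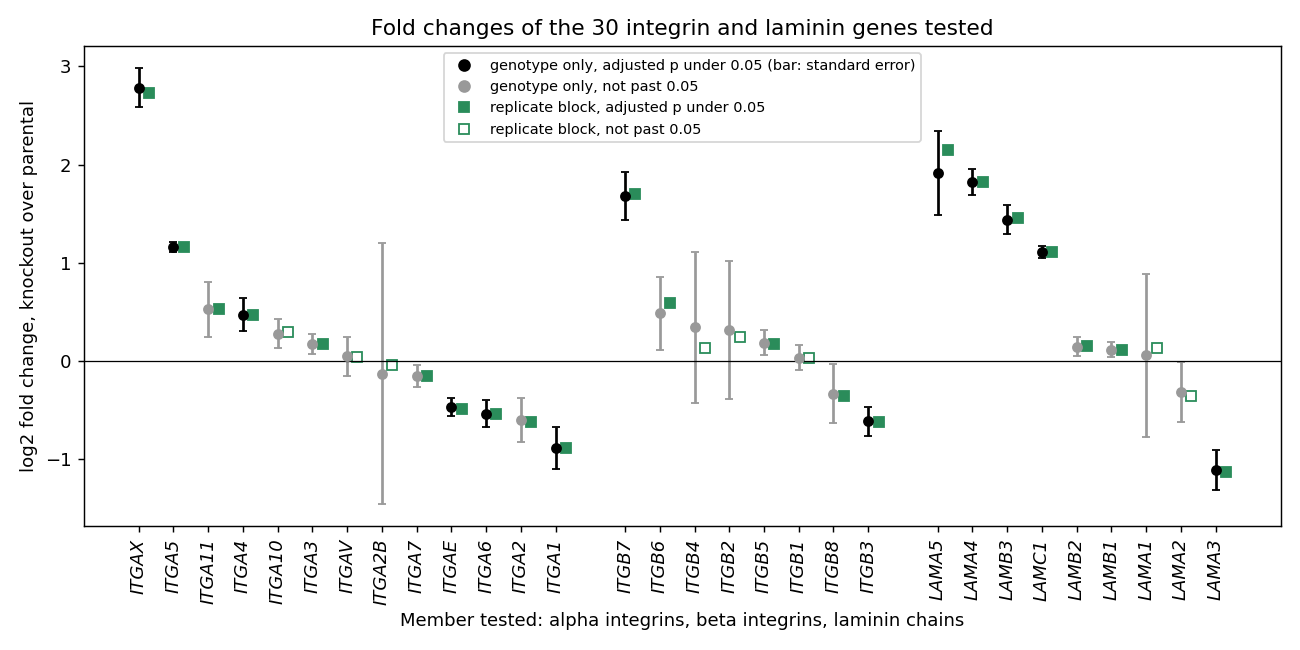
Log2 fold change of knockout over parental cells (y axis) for the 30 members tested (x axis), by class: circles with standard errors for the fit with genotype only, black where past 0.05, and squares for the fit with the replicate block, filled where past 0.05. ITGAX is highest at 2.78 and LAMA3 lowest at -1.11.

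The regions before the starts of 4 members are shown because these genes had the largest called rises (LAMA5, LAMC1) and falls (ITGA1, ITGA6) among members that reached 5 CPM in a genotype and had at most 30 exonic bases of GENCODE release 29 in the window, a choice made with the values known. LAMA4, LAMB3 and ITGA5 rose too, and their windows hold 187, 41 and 194 exonic bases and are not shown. Each is the 250 bases before the gene's start in RefSeq (GRCh38.p14), read 5′ to 3′ on the gene's strand. LAMA5 is on the minus strand at chr20:62367313-62367562, LAMC1 on the plus strand at chr1:183023170-183023419, ITGA1 on the plus strand at chr5:52787666-52787915 and ITGA6 on the plus strand at chr2:172427086-172427335. Capitals mark every match, on either strand, to the SP1 box GGGCGG or the E-box CAGGTG, which SNAI factors and other E-box proteins bind.
LAMA5: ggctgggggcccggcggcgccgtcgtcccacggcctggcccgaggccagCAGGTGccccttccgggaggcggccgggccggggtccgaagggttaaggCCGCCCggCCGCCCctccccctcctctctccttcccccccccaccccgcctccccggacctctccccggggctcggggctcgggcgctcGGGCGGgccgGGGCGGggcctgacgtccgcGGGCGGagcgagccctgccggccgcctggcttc
LAMC1: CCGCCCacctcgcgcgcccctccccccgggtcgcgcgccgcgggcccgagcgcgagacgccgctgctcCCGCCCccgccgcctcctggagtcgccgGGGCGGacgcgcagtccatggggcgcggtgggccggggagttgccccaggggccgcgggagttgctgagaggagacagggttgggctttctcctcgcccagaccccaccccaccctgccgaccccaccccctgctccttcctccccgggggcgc
ITGA1: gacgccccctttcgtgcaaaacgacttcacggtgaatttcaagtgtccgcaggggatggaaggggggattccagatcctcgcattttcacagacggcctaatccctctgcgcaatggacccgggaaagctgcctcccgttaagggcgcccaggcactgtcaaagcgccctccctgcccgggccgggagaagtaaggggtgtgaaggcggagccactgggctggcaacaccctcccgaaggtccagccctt
ITGA6: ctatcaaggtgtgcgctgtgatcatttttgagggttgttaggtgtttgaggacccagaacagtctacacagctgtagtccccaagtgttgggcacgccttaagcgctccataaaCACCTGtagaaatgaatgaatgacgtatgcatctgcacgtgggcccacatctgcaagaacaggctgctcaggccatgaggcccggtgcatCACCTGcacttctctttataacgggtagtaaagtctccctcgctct
LAMA5 held 5 SP1 boxes and 1 E-box, LAMC1 held 3 SP1 boxes, ITGA6 held 2 E-boxes, and neither motif was found in the window of ITGA1. Of 35116 RefSeq windows of this length, 42.6% held the SP1 box and 17.5% the E-box. Of 26 members with a RefSeq window, 13 held the SP1 box (50%) and 7 the E-box (26.9%). The TEAD motif GGAATG was in 4 of the 26 (15.4%, against 11.9% of all windows) and the AP-1 motif TGANTCA in 1 (3.85%, against 6.57%), and neither was in the 4 windows shown. Of 7 members that rose and have a window, 2 held the E-box, 4 the SP1 box, 1 the TEAD motif and 0 the AP-1 motif. Of 4 that fell, 2 held the E-box, 1 the SP1 box, 0 the TEAD motif and 1 the AP-1 motif. A match to these letters is a description and not a binding site.

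Among laminin alpha chains, which carry the domains that cells bind, the chains of vascular and epithelial basement membranes rose and the epithelial LAMA3 fell. LAMA4 (ENSG00000112769.20, chromosome 6, 112108760 to 112254939, hg38), the alpha-4 chain found in vessel and mesenchymal basement membranes, was at 6.12, 5.99, 6.08, 8.56 and 7.600 CPM in parental replicates 1 to 5. In knockout replicates 1 to 5 it was at 23.6, 21.4, 22.1, 27.6 and 27.2 CPM. Every knockout library lay well above every parental one. Its log2 fold change of 1.82 had a standard error (SE) of 0.13 (edgeR adjusted p = 2.42e-06). An exact permutation test (two-sided, on log2 CPM) gave p = 0.00794, the smallest that arrangements of 5 against 5 libraries allow.

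LAMA5 (ENSG00000130702.15, chromosome 20, 62307955 to 62367312), the alpha-5 chain of most mature epithelial basement membranes, measured 6.99, 8.69, 7.83, 2.22 and 2.04 CPM in parental replicates 1 to 5 and 23.7, 24.3, 25.4, 14.9 and 15.5 CPM in knockout replicates 1 to 5. Both genotypes were lower in the deep libraries, and the ranges stayed apart. The log2 fold change was 1.91 (SE 0.43, edgeR adjusted p = 0.00513), and it was 1.63 in the shallow libraries alone and 2.81 in the deep libraries alone. The fold was larger in the deep libraries, a difference that was not tested. The shallow libraries are also those with the muscle, erythroid and liver transcripts given above, and the part of those transcripts in the LAMA5 level was not tested.

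LAMA3 (ENSG00000053747.17, chromosome 18, 23689443 to 23956222), the alpha-3 chain of the laminin that anchors epithelia through hemidesmosomes, was low. Parental replicates 1 to 5 held 1.53, 1.31, 1.57, 1.99 and 2.05 CPM and knockout replicates 1 to 5 held 0.782, 0.808, 0.467, 0.863 and 0.972 CPM. All 5 knockout libraries were below the parental ones. It fell by 1.11 on the log2 scale (SE 0.20, edgeR adjusted p = 0.00156), with -1.11 in the shallow libraries alone and -1.15 in the deep ones. LAMA1, the alpha chain of embryonic basement membranes, was at 0.124 to 0.341 CPM in the shallow and 1.13 to 1.39 CPM in the deep libraries, with overlapping genotypes (edgeR adjusted p = 0.971). LAMA2, the alpha chain of muscle, was at 0.378 to 0.812 CPM in parental and 0.216 to 0.689 CPM in knockout libraries and did not pass (adjusted p = 0.475).

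Of the beta chains, only LAMB3 was past the threshold in the genotype fit. LAMB3 (ENSG00000196878.15, chromosome 1, 209614870 to 209652466), the beta chain that pairs with LAMA3 in the hemidesmosome laminin, had parental levels of 18.6, 14.6, 16.5, 11.7 and 11.9 CPM and knockout levels of 43.8, 42.9, 42.7, 34.5 and 34.6 CPM, replicates 1 to 5 in order. The groups were apart, with the lowest knockout library at 34.5 CPM and the highest parental one at 18.6 CPM. It rose 2.71-fold (log2 fold change 1.44, SE 0.14, edgeR adjusted p = 2.97e-05), so LAMA3 and LAMB3, which share a trimer, moved in opposite directions.

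LAMB1 and LAMB2, the beta chains of the most widespread laminins, were the most abundant beta chains per length. LAMB1 measured 172, 173, 167, 184 and 183 CPM in parental replicates 1 to 5 and 185, 175, 173, 208 and 212 CPM in knockout replicates 1 to 5. LAMB2 had parental levels of 139, 143, 131, 110.1 and 109.8 CPM and knockout levels of 147, 146, 153, 127 and 127 CPM, replicates 1 to 5 in order. Both overlapped when pooled, and within each depth every knockout library was above the parental ones. Neither passed with genotype only (edgeR adjusted p = 0.252 and 0.296), and both passed with the replicate block at small log2 fold changes of 0.11 and 0.15 (adjusted p = 0.0332 and 0.0103). LAMB1 lies on chromosome 7, whose protein-coding genes had a median log2 fold change of -0.30, and with that median subtracted its value was 0.42 (adjusted p = 0.00136).

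The gamma chain LAMC1 (ENSG00000135862.6, chromosome 1, 183023460 to 183145592), shared by most laminin trimers, was at 76.5, 77.2, 76.3, 79.9 and 76.5 CPM in parental replicates 1 to 5 and at 165, 160.0, 154, 175 and 179.7 CPM in knockout replicates 1 to 5. The knockout libraries were above the parental ones in both depths, and the spread within a genotype was small. The log2 fold change was 1.11 (SE 0.0580, edgeR adjusted p = 2.88e-07). LAMC3, a gamma chain of peripheral tissues and retina, and LAMB4 were not tested, with 0 to 0.135 CPM and 0.0385 to 0.212 CPM in any library.

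**Figure D2:**
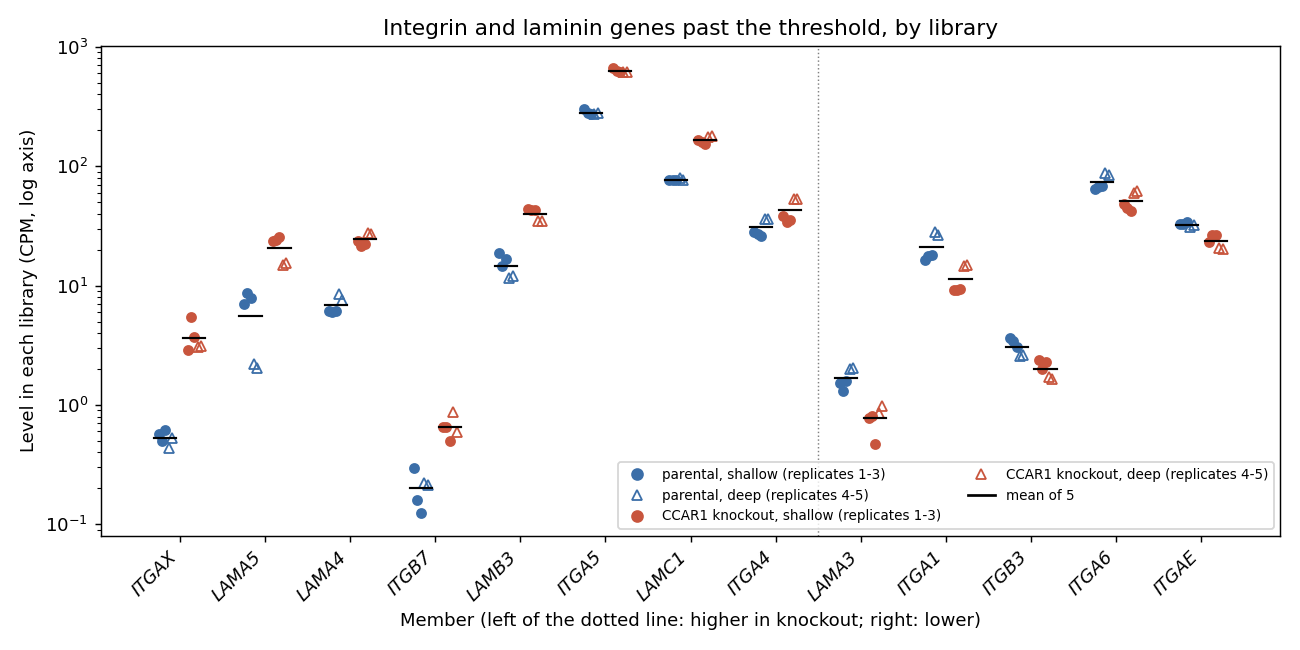
Level of the 13 members past the threshold in each library (y axis, CPM on a log axis), parental in blue and knockout in red, with filled circles for shallow and open triangles for deep libraries and a bar for the mean of 5. Genes left of the dotted line were higher in knockout cells; the ranges are apart for all of them except ITGA4.

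Among alpha integrins that passed the test, ITGA5, ITGA4 and ITGAX rose and ITGA1, ITGA6 and ITGAE fell. ITGA5 (ENSG00000161638.11, chromosome 12, 54395261 to 54419460), which pairs with ITGB1 to bind the RGD motif of fibronectin, was at 299, 279, 276, 274 and 277 CPM in parental replicates 1 to 5. In the knockout it was at 662, 622, 619.6, 618 and 619 CPM. All knockout libraries were far above the parental ones, in shallow and deep libraries alike. It rose 2.23-fold (log2 fold change 1.16, SE 0.0496, edgeR adjusted p = 7.79e-08).

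ITGA1 (ENSG00000213949.10, chromosome 5, 52787896 to 52959210), a collagen receptor chain, fell from 21.2 ± 5.45 to 11.5 ± 2.997 CPM (log2 fold change -0.89, SE 0.21, edgeR adjusted p = 0.00759), with ranges of 16.4 to 27.9 CPM and 9.18 to 15.00 CPM. Its exons overlap 475 bases of PELO on the same strand, which was at 64.5 and 66.4 CPM, so reads of this stretch could be assigned to either gene. ITGA2, the alpha chain of a second collagen receptor, lies beside it on chromosome 5. It measured 14.3, 18.8, 16.4, 22.8 and 22.96 CPM in parental replicates 1 to 5 and 11.02, 8.87, 8.96, 16.8 and 16.98 CPM in knockout replicates 1 to 5. The ranges overlapped when pooled and were apart within each depth. ITGA2 did not pass with genotype only (log2 fold change -0.60, edgeR adjusted p = 0.0584) and passed with the replicate block (-0.62, adjusted p = 5.50e-04). Of the other collagen receptor chains, ITGA11 was at 0.551 to 1.38 CPM in parental and 0.952 to 1.83 CPM in knockout libraries (adjusted p = 0.180, and 0.0251 with the block), and ITGA10 was under 1 CPM in every library (adjusted p = 0.183).

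ITGA6 (ENSG00000091409.16, chromosome 2, 172427354 to 172506282), a laminin receptor chain that can pair with ITGB1 or with the hemidesmosome chain ITGB4, fell from 74.4 ± 10.9 to 51.2 ± 8.93 CPM (log2 fold change -0.54, SE 0.14, edgeR adjusted p = 0.0105). Its ranges were apart, at 64.8 to 87.5 CPM and 41.8 to 61.8 CPM. ITGA3, a laminin receptor chain of epithelial cells and the most abundant alpha chain per length, had parental levels of 1194, 991, 1039, 882 and 886 CPM and knockout levels of 1286, 1178, 1161, 1008 and 989.8 CPM, replicates 1 to 5 in order. These ranges overlapped, and ITGA3 did not pass with genotype only (log2 fold change 0.17, edgeR adjusted p = 0.238). It passed with the replicate block (0.17, adjusted p = 0.00375) and, since it lies on chromosome 17 with a median of -0.28, with chromosome medians subtracted (0.45, adjusted p = 0.00668).

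ITGA7, the laminin receptor chain known from muscle, measured 202, 188, 181, 152 and 154 CPM in parental replicates 1 to 5 and 171, 164, 179.5, 137 and 136 CPM in knockout replicates 1 to 5. The shallow libraries, which hold the muscle transcripts given above, were higher than the deep ones in both genotypes, and the part of muscle transcripts in the ITGA7 level was not tested. The pooled ranges overlapped and the test did not pass (log2 fold change -0.15, edgeR adjusted p = 0.324), while the replicate block gave -0.15 (adjusted p = 0.00822).

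ITGA4, a chain that binds fibronectin and VCAM1, had parental levels of 28.2, 26.9, 26.3, 36.4 and 36.4 CPM and knockout levels of 37.97, 33.8, 35.6, 52.96 and 53.6 CPM, replicates 1 to 5 in order. The shallow knockout libraries overlapped the deep parental ones, and within each depth the knockout was higher. The call was near the threshold (log2 fold change 0.47, SE 0.16, edgeR adjusted p = 0.0457) and the exact permutation p was 0.0556. It was lost without parental replicate 1, 2 or 3 (adjusted p = 0.0946, 0.104 and 0.104) and without knockout replicate 1, 4 or 5 (0.0560, 0.101 and 0.0958). It was also lost with DESeq2 size factors (0.0561), no filter on low counts (0.0958) and chromosome medians subtracted (0.0743), and kept with the block (9.44e-06) and with chromosome medians subtracted and depth as a term (1.01e-06). ITGAV, whose pairs bind vitronectin and latent TGF-beta, was at 82.3 to 129.8 CPM and 82.5 to 140.2 CPM and did not pass (log2 fold change 0.05, SE 0.20, adjusted p = 0.891).

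ITGAE, which pairs with ITGB7 to bind E-cadherin and lies on chromosome 17, measured 32.6, 32.6, 34.3, 30.9 and 31.9 CPM in parental replicates 1 to 5 and 23.1, 26.7, 26.6, 20.5 and 20.2 CPM in knockout replicates 1 to 5. The groups were apart, and it fell by 0.47 on the log2 scale (SE 0.0919, edgeR adjusted p = 0.00237). With the median of chromosome 17 subtracted the value was -0.19 and the call was lost (adjusted p = 0.146), but it was kept when depth was a term as well (-0.20, adjusted p = 0.00392).

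ITGAX (ENSG00000140678.17, chromosome 16, 31355134 to 31382997), a complement receptor chain of dendritic cells and macrophages, had the largest fold of the members at a low level. It had parental levels of 0.567, 0.495, 0.619, 0.436 and 0.531 CPM and knockout levels of 2.87, 5.48, 3.68, 3.05 and 3.102 CPM, replicates 1 to 5 in order. The lowest knockout library was at 2.87 CPM and the highest parental one at 0.619 CPM. The log2 fold change was 2.78 (SE 0.20, edgeR adjusted p = 2.94e-06). The 9 leukocyte markers summed to 1.89 to 8.40 CPM in parental and 6.03 to 12.04 CPM in knockout libraries, and 7 of them stayed under 1 CPM throughout. CSF1R was at 1.48 to 1.87 CPM in parental and 5.69 to 7.06 CPM in knockout libraries. PTPRC, which marks leukocytes in general, was at 0.442 to 0.813 CPM in the shallow parental libraries and 0.279 to 0.808 CPM in the shallow knockout libraries. In the deep libraries it was at 0.137 and 0.157 CPM (parental) and 0.0321 and 0.0327 CPM (knockout). TYROBP was at 0.0177 to 0.0945 CPM in shallow parental libraries, 0.0898 to 0.346 CPM in shallow knockout libraries and 0 in the deep ones. LYZ, a myeloid lysozyme, was at 2.08 to 5.499 CPM and 0.970 to 4.62 CPM in the shallow libraries of the genotypes. In the deep libraries it was at 0.0449 and 0.0408 CPM (parental) and 0.102 and 0.107 CPM (knockout). The part of leukocyte transcripts in the ITGAX level was not tested. ITGB2, the beta chain that ITGAX needs for its receptor, was at 0.143 to 1.01 CPM in parental and 0.140 to 0.862 CPM in knockout libraries and did not pass (adjusted p = 0.788).

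Of the remaining alpha chains, ITGA8, ITGA9, ITGAD, ITGAL and ITGAM did not pass the filter on low counts, with at most 0.500 CPM in any library. ITGA2B, the platelet fibrinogen receptor chain, was at 2.64 to 5.13 CPM in the shallow libraries and 0.0608 to 0.0904 CPM in the deep ones, with overlapping genotypes (edgeR adjusted p = 0.959). Of the 5 platelet markers, PF4 and PPBP were at or under 0.154 CPM and GP6 at or under 0.212 CPM in every library. GP9 was at 0.0931 to 0.424 CPM in the shallow libraries and at or under 0.00297 CPM in the deep ones. GP1BA was at 0.654 to 0.843 CPM in parental libraries, below the 1.204 to 1.86 CPM of the knockout. Whether other tissues' transcripts in the shallow libraries bear on ITGA2B was not tested.

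Of the 8 beta integrins 6 did not pass the test, ITGB1 among them. ITGB1, the partner of at least ITGA1 to ITGA6 among the chains above, measured 798, 774, 792, 1036 and 1034 CPM in parental replicates 1 to 5 and 806, 841, 774, 1054 and 1069 CPM in knockout replicates 1 to 5. The deep libraries were higher in both genotypes, and the genotypes overlapped. The log2 fold change was 0.04 (SE 0.13, edgeR adjusted p = 0.875), and the block did not pass it either (adjusted p = 0.475).

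ITGB5, a beta chain of vitronectin receptors with ITGAV, had parental levels of 156, 135, 149, 120.0 and 121 CPM and knockout levels of 177, 169, 178, 127 and 124 CPM, replicates 1 to 5 in order. It did not pass with genotype only (log2 fold change 0.19, edgeR adjusted p = 0.304) and passed with the block (0.18, adjusted p = 0.00888), with 0.25 in the shallow libraries alone and 0.04 in the deep ones. ITGB8, which with ITGAV activates latent TGF-beta, measured 29.3, 33.6, 34.7, 59.1 and 57.3 CPM in parental replicates 1 to 5 and 26.97, 23.5, 21.2, 49.1 and 49.1 CPM in knockout replicates 1 to 5. The deep libraries were higher in both genotypes, and within each depth the knockout was lower. It did not pass with genotype only (log2 fold change -0.33, edgeR adjusted p = 0.447) and passed with the block (-0.36, adjusted p = 0.00250). It lies on chromosome 7, and its value with chromosome medians subtracted was -0.03 (adjusted p = 0.955).

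ITGB3, the beta chain of the platelet receptor and of a second vitronectin receptor, had parental levels of 3.61, 3.46, 3.08, 2.59 and 2.63 CPM and knockout levels of 2.401, 2.02, 2.299, 1.71 and 1.64 CPM, replicates 1 to 5 in order. The groups were apart and it fell by 0.61 on the log2 scale (SE 0.15, edgeR adjusted p = 0.00791). Subtracting the median of chromosome 17, where it lies, ended the call (-0.33, adjusted p = 0.115), and it was kept when depth was a term as well (-0.33, adjusted p = 0.00199). Its exons share 2266 bases on the same strand with the gene AC068234.1, listed at 0 in every parental library and with a knockout mean of 0.0961 CPM. ITGB7, a beta chain of lymphocyte homing receptors, rose from 0.203 ± 0.0669 to 0.656 ± 0.136 CPM (log2 fold change 1.68, edgeR adjusted p = 3.57e-04), a level under 1 CPM in every library. Of the 2867 exonic bases of ITGB7, 1474 overlap ZNF740 on the other strand, which was at 31.1 and 34.1 CPM. The sources used here do not say that counting used strand, so the reads of ITGB7 and ZNF740 cannot be told apart there.

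ITGB4, the hemidesmosome chain, and ITGB6, an epithelial TGF-beta activating chain, were low. ITGB4 was at 0.548 to 1.21 CPM in the shallow and 0.101 to 0.177 CPM in the deep libraries of both genotypes (edgeR adjusted p = 0.791). ITGB6 was at 0.111 to 0.362 CPM in parental and 0.154 to 0.465 CPM in knockout libraries (adjusted p = 0.359, and 0.0484 with the block). It shares 966 exonic bases on the same strand with AC092153.1, at 0.123 and 0.435 CPM, so counts of this pair could be exchanged.

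**Figure D3:**
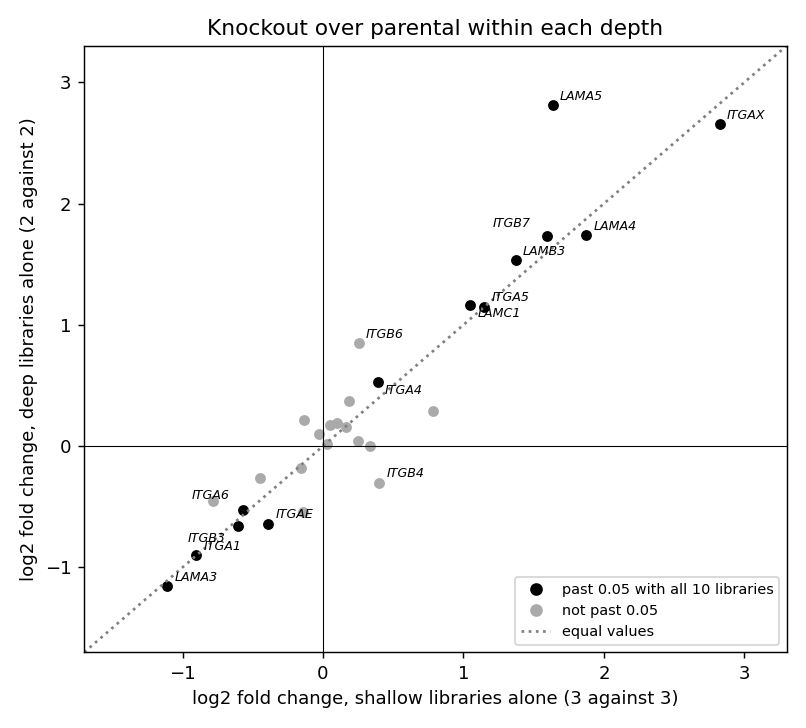
Log2 fold change of knockout over parental cells in the shallow libraries alone (x axis) and in the deep libraries alone (y axis) for the members fitted in both, black where past 0.05 with all 10 libraries, with a dotted line where both are equal. LAMA5, at 1.63 and 2.81, lies farthest from the line of the 13 called members, while ITGA5 is at 1.15 in both.

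Levels of different genes were compared as CPM per kb of exonic length (GENCODE release 29), which ignores which isoforms are made. In parental cells ITGA3 (204 ± 26.3 CPM per kb) led the alpha chains, before ITGA5 (63.3 ± 2.296) and ITGA7 (38.8 ± 4.87), and these SDs do not meet. In knockout cells the order was kept, at 230.1 ± 25.4, 141 ± 4.31 and 34.9 ± 4.42 CPM per kb. As a share of the summed CPM per kb of all 18 alpha chains, ITGA5 was 17.9 ± 0.821% in parental and 31.5 ± 1.18% in knockout cells, with libraries at 16.9 to 18.8% and 30.4 to 32.9%. The share of ITGA3 was 57.5 ± 2.93% and 51.04 ± 2.72%, with libraries at 54.6 to 61.3% and 47.8 to 53.7%. The level of ITGA3 itself did not pass the test with genotype only. Shares of a whole are bound to each other, so a rise of ITGA5 lowers the others. ITGB1 was 85.7 ± 2.45% and 84.9 ± 3.44% of the beta chains and ITGB5 12.1 ± 2.67% and 13.4 ± 3.70%.

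Among laminin alpha chains LAMA4 was 53.5 ± 9.69% of the summed CPM per kb in parental and 60.8 ± 7.30% in knockout cells, and LAMA5 29.3 ± 16.3% and 35.5 ± 8.65%. Both pooled ranges overlapped. Within each depth the share of LAMA4 was apart, at 44.7 to 49.3% and 54.4 to 57.5% in the shallow libraries and 63.4 to 64.6% and 68.4 to 69.1% in the deep ones. LAMA5 overlapped in the shallow libraries, at 38.6 to 44.5% and 39.5 to 43.2%, and was apart in the deep ones, at 11.5 to 11.7% and 25.6 to 26.7%. The share of LAMA3 was 9.37 ± 2.03% and 1.38 ± 0.342%, with libraries at 6.92 to 12.1% and 0.823 to 1.74%. Its own level fell less, 2.16-fold, from 0.153 ± 0.0288 to 0.0705 ± 0.0171 CPM per kb. Rises of LAMA4 and LAMA5 also lower the share of LAMA3. Among beta chains LAMB3 went from 6.07 ± 1.04% to 13.8 ± 1.59%, with libraries at 5.05 to 7.39% and 12.1 to 15.2%. The alpha chains were scarce beside their partners in both genotypes: per kb, LAMA4 was at 0.877 ± 0.148 and 3.11 ± 0.368 CPM, LAMC1 at 9.796 ± 0.191 and 21.1 ± 1.36 CPM and LAMB1 at 28.3 ± 1.19 and 30.7 ± 2.96 CPM.

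**Figure D4:**
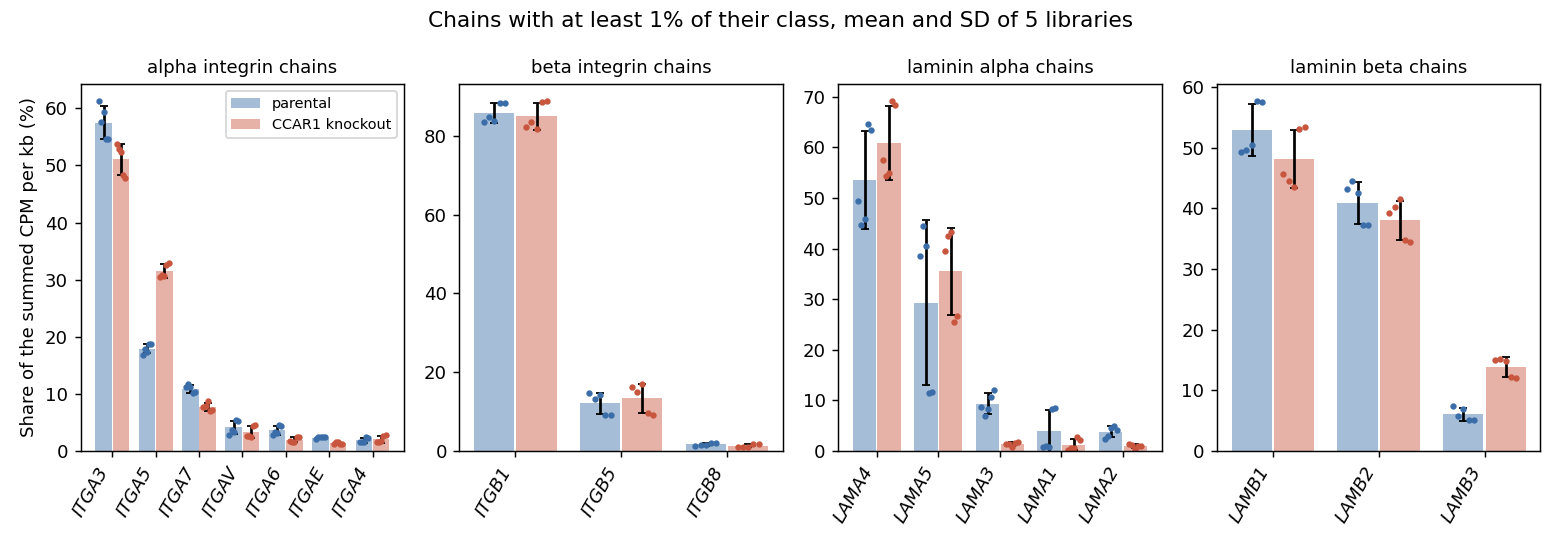
Share of each chain in the summed CPM per kb of its class (y axis, percent) for chains with at least 1% in either genotype (x axis), bars for the mean and error bars for the SD of 5 libraries, points for libraries. ITGA5 goes from 17.9 to 31.5% of alpha integrins, LAMA3 from 9.37 to 1.38% of laminin alpha chains and LAMB3 from 6.07 to 13.8% of laminin beta chains. Shares within a class are bound to each other, so a rise of 1 chain lowers the others.

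Among 28 other genes of the basement membrane and of integrin ligands, 11 rose, 7 fell and 10 did not pass (median log2 fold change 0.30). That is 64.3% called against 36.6% of all genes tested. The list was chosen with earlier results of these data known, so this share is a description only. NID2, a nidogen that links laminin to type IV collagen, rose from 20.1 ± 2.13 to 77.5 ± 4.303 CPM (edgeR adjusted p = 9.71e-08). FN1, fibronectin, the ligand of the ITGA5 pair, rose from 1109 ± 55.1 to 3070.0 ± 482 CPM (log2 fold change 1.47, SE 0.10, edgeR adjusted p = 2.40e-06), with ranges of 1021 to 1162 CPM and 2632 to 3676 CPM. SPP1, osteopontin, a ligand of ITGAV pairs, rose from 31.8 ± 6.59 to 112 ± 2.71 CPM. FREM2, a Fraser complex protein of epithelial basement membranes with its gene on chromosome 13, went down from 5.31 ± 0.673 to 1.74 ± 0.338 CPM (edgeR adjusted p = 1.74e-05, and 1.34e-04 with the median of that chromosome, -0.41, subtracted). PXDN, the peroxidase that crosslinks type IV collagen, fell from 302 ± 13.3 to 225 ± 8.16 CPM, and NTN4, a netrin that binds laminin gamma chains, from 86.95 ± 5.54 to 54.03 ± 5.799 CPM. NID1, the other nidogen, fell from 32.1 ± 0.469 to 24.2 ± 1.33 CPM and was chosen after its values were seen, since the nidogens moved in opposite directions.

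**Figure D5:**
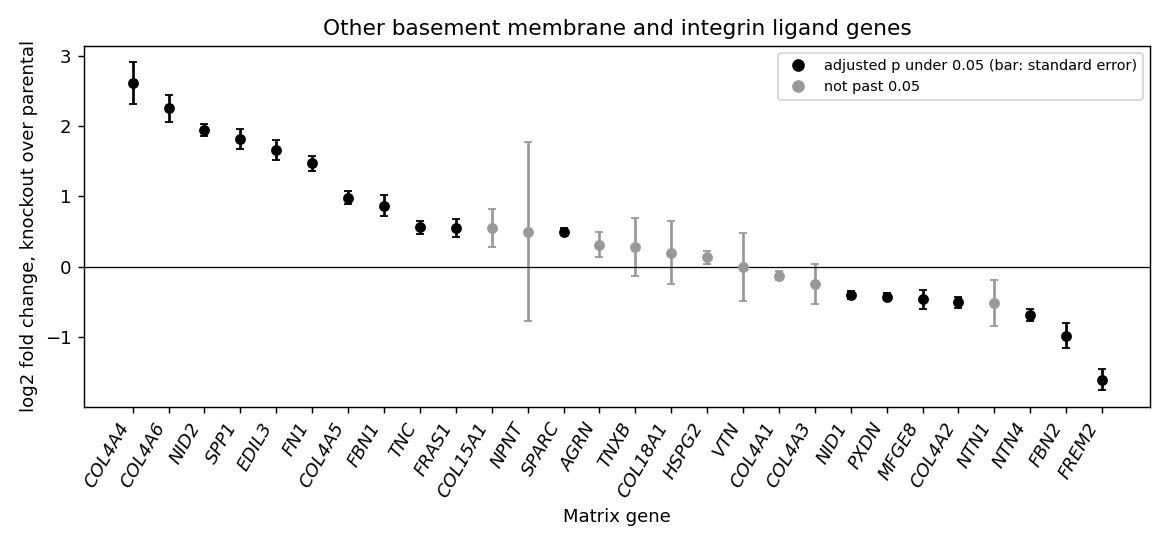
Log2 fold change of knockout over parental cells with its standard error (y axis) for 28 other basement membrane and integrin ligand genes (x axis, in order of value), black where the adjusted p was under 0.05. FN1 is at 1.47 and NID2 at 1.95, and FREM2 is lowest at -1.60.

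Of 44 genes that act on the inner side of integrins (tail adaptors), 43 were tested: 5 rose, 13 fell and 25 did not pass, or 41.9% called, near the 36.6% of all genes tested (median log2 fold change -0.02). FLNC, an actin crosslinker that binds beta tails, fell from 2965 ± 386 to 1575 ± 134 CPM (edgeR adjusted p = 4.32e-05), the adaptor CRK from 103 ± 7.39 to 67.01 ± 3.61 CPM and the actin crosslinker ACTN1 from 937 ± 57.2 to 671 ± 36.5 CPM. FLNC is encoded on chromosome 7 and CRK on chromosome 17, and both calls were kept with chromosome medians subtracted (log2 fold changes -0.61 and -0.34, adjusted p = 6.74e-04 and 0.00309). TNS2 and TNS1, tensins that tie beta tails to actin, rose from 32.7 ± 3.56 to 52.03 ± 4.499 CPM and from 71.2 ± 3.45 to 91.00 ± 7.59 CPM, and NUMB, an adaptor for endocytosis, rose from 47.9 ± 3.73 to 64.2 ± 4.26 CPM. Another tensin, TNS3 on chromosome 7, fell from 178 ± 7.73 to 140 ± 13.6 CPM (log2 fold change -0.35, edgeR adjusted p = 0.00396). That call was lost with chromosome medians subtracted (-0.05, adjusted p = 0.671). TNS4 did not pass (edgeR adjusted p = 0.422). The talin TLN1, which switches integrins on, the kinase scaffold ILK and the kindlin FERMT2 did not pass, with log2 fold changes of -0.14, -0.05 and 0.02 (edgeR adjusted p = 0.112, 0.767 and 0.930). TLN1 passed with the replicate block (-0.15, adjusted p = 0.0287). The talin TLN2 and the adaptors PARVA and VCL fell, by -0.40, -0.46 and -0.33 (edgeR adjusted p = 0.00701, 0.00220 and 0.0439). The VCL call was lost with chromosome medians subtracted (adjusted p = 0.360). TLN1, ILK, FERMT2, TLN2, PARVA, VCL, TNS3 and TNS4 were chosen after their values were seen. With chromosome medians subtracted 5 tail adaptors were called higher and 10 lower, where 33.5% of all genes were called.

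Of 21 non-integrin laminin receptors, tetraspanins and hemidesmosome genes, 4 rose, 5 fell and 12 did not pass, or 42.9% called, near the 36.6% of all genes tested (median log2 fold change 0.06). SDC3 and SDC2, syndecans that bind matrix through heparan sulfate, rose from 21.5 ± 2.75 to 65.4 ± 6.63 CPM (edgeR adjusted p = 1.30e-06) and from 37.02 ± 2.83 to 51.97 ± 0.977 CPM. BCAM, a receptor for the LAMA5 chain, rose from 10.04 ± 2.62 to 16.3 ± 3.78 CPM (log2 fold change 0.70, edgeR adjusted p = 0.0257), and this call was lost with chromosome medians subtracted (adjusted p = 0.0849). CD9, a tetraspanin partner of integrins, fell from 89.9 ± 4.06 to 48.8 ± 2.503 CPM (edgeR adjusted p = 1.70e-06), and COL17A1, the transmembrane collagen of hemidesmosomes, from 5.02 ± 0.319 to 3.41 ± 0.210 CPM. SGCE, a sarcoglycan with its gene on chromosome 7, went down from 52.4 ± 4.82 to 39.1 ± 1.54 CPM, with a log2 fold change of -0.42 that became -0.12 (adjusted p = 0.232) with chromosome medians subtracted. With the replicate block 8 of these genes were called higher and 6 lower, where 61.2% of all genes were called. The 4 rises became 2 without any 1 of parental replicates 4 and 5 and knockout replicates 1, 2 and 3.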

How the data were processed

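Polyadenylated RNA of 10 samples was measured. The deposited table gives the authors' estimated counts (expected counts) per gene, made with kallisto 0.48.0 and hg38 per the submitters' processing notes; for annotation release and strand setting the sources used here give nothing. Counts were rounded, genes kept by filterByExpr (18979 of 62700), libraries scaled by TMM, and genotype fitted in edgeR 4.0.16 (R 4.3.3; quasi-likelihood, robust, Benjamini-Hochberg, threshold 0.05). SEs come from the coefficient and its F statistic. CPM is counts per 1e6 of scaled library size; every mean ± SD has n = 5 and includes the split in depth. Kallisto divides reads between similar genes by likelihood, so close relatives can exchange counts.

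Single genes were also tested by exact two-sided permutation of log2 CPM (prior count 2). Positions and lengths are from GENCODE release 29 (GRCh38), matched by ID for 37 of 37 members and 95.1% of genes tested. Promoter windows are from RefSeq (GRCh38.p14).

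The fit was tested on simulated data (18979 genes, 50 changed per size, knockout against parental): it recovered 0% of 1.2-fold, 18% of 1.5-fold, 44% of 2-fold and 94% of 4-fold changes, with 7 false calls. The simulated levels had no split in depth, and their spread came from the fit with genotype only. These rates may therefore not hold for libraries that are split in depth. No libraries were merged: within a genotype and depth, counts differed beyond sampling noise, with a chi-square of 6.71 to 25.5 per gene. Same-numbered samples deviated together (correlations 0.641, 0.586, 0.606, 0.898 and 0.893, every one above 0.1). The split in depth alone can give such a pattern, so these correlations cannot show that the replicate number pairs samples. The replicate number was used as a block in an alternative only. The main fit, its SEs and the permutation tests used genotype alone, so the spread they measure includes the split in depth. The common coefficient of variation between libraries in edgeR was 0.310 with genotype only and 0.0751 with the replicate block.

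The members and gene lists were chosen with earlier results of these data known. Every member is named; values in each library are given for members called with at least a 2-fold change and 1 CPM, for the most abundant chains, and where an alternative changes a call. From other lists the 3 smallest adjusted p-values in each direction are named. Alternatives were DESeq2 size factors, library size only, 2 filters on low counts, DESeq2 1.42.0, limma-voom (limma 3.58.1), the replicate block, depth as a term, each depth alone, chromosome medians subtracted, and each library left out; chromosome medians were also subtracted with depth as a term, an alternative chosen after seeing the data.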

Additional observations from a re-analysis of the deposited data

Results flagged for a closer look

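Each of the 37 members had a group of 5 libraries in each genotype. Of these groups, 5 had 1 library far from the other 4 by Dixon's criterion. Chance flags about 1 in 20 groups drawn from a single normal distribution. The groups here mix shallow and deep libraries, so that rate may not hold. Replicate 1 was highest for ITGA5 in both genotypes, with 299 CPM against 274 to 279 CPM in the other parental libraries and 662 CPM against 618 to 622 CPM in the other knockout libraries. Parental replicate 4 held 79.9 CPM of LAMC1, against 76.3 to 77.2 CPM in the others. At very low levels, ITGAM was at 0.126 CPM in parental replicate 1, against 0.00264 to 0.0353 CPM, and LAMB4 at 0.0385 CPM in knockout replicate 2, against 0.0898 to 0.0992 CPM. The gaps for ITGA5 and LAMC1 are far smaller than the difference between the genotypes.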

How the results depend on the processing

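The 13 members called with genotype only kept their direction under the alternatives in which they were fitted (ITGB7 did not pass the filter of 1 CPM in 5 libraries), and the exceptions in their calls (ITGA4, ITGAE and ITGB3) stand beside those genes above. Counts of calls moved most with the split in depth. With the replicate block 14 members were higher and 8 lower, and with depth as a term 13 and 8. In the deep libraries alone, where 35 members were tested, 15 were higher and 9 lower. In the shallow libraries alone, where 29 were tested, 8 were lower. Chromosome medians subtracted left 3 lower, and with depth as a term as well gave 14 higher. Laminin receptor and hemidesmosome genes called higher numbered 8 with the replicate block or in the shallow libraries alone and 9 with depth as a term, with or without chromosome medians subtracted. They numbered 2 to 5 with 1 library left out, and those called lower 9 in the deep libraries alone and 3 with chromosome medians subtracted. Tail adaptors called higher numbered 8 with depth as a term, with or without chromosome medians subtracted, 8 in the shallow libraries alone and 9 in the deep ones. Over all genes 3741 were higher and 3198 lower, against 5906 and 5713 with the replicate block, 6200 and 5949 with depth as a term, 7775 and 7545 in the deep libraries alone, 6359 and 5371 with chromosome medians subtracted and depth as a term, and 4931 lower in the shallow libraries alone. The cause was not tested. Directions turned for genes that did not pass: ITGA2B was at 0.046 with limma-voom, 0.22 in the deep libraries alone, 0.15 with chromosome medians subtracted and 0.23 with depth as well (log2 fold changes, -0.13 with genotype only). ITGAV was at -0.026 in the shallow libraries alone, -0.0012 with chromosome medians subtracted and -0.013 with depth as well. ITGB4 was at -0.081 with limma-voom and -0.30 in the deep libraries alone, LAMA1 at -0.12 in the deep libraries alone and LAMA2 at 0.0080 with chromosome medians subtracted. With 1 library left out ITGA2B ran from -0.67 to 0.46, ITGAV from -0.064 to 0.14, ITGB1 from -0.028 to 0.095, ITGB4 from -0.062 to 0.66 and LAMA1 from -0.40 to 0.55. LAMA1, low in these libraries, could not be fitted in the shallow libraries alone.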
